A study of Mus musculus with 2 samples.

Results

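The 7 genes described here encode the chloride, sodium and potassium channels and the Na/K pump subunits that set the electrical excitability of the muscle fibre membrane. They are *Clcn1*, *Scn4a*, *Kcnj2*, *Kcnj11*, *Kcnma1*, *Atp1b1* and *Fxyd1*, chosen by their function, with earlier results of these data known, out of 22380 protein-coding genes on the assembled chromosomes of the annotation. Mbnl2 binding to their RNA was read from HITS-CLIP tags of quadriceps muscle. In this assay, protein and RNA are crosslinked by UV-light in frozen tissue, the RNA is trimmed with RNase A, the protein is immunopurified and the RNA fragments it carries (tags) are sequenced. The groups were WT mice and *Mbnl1* KO (Mbnl1-/-) mice, 3 of each, aged 15 to 16 weeks. The labels give the strain of both as C57BL/6, whereas the methods give a C57BL/129 background for the heterozygotes crossed to make compound knockouts, so the strain of these mice is not certain. The knockout allele is a constitutive deletion of *Mbnl1* exon 3. The methods give high (38.6 U/ml) and low (0.0386 U/ml) RNase A, and do not say whether the sequenced libraries include both. The 3 mice of a genotype were merged by the authors into 1 table. The mice can therefore not serve as replicates, and there is no test between genotypes.

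A muscle fibre fires when its voltage-gated sodium channel opens, and it is returned to rest by potassium channels and by an unusually large chloride conductance through the channel encoded by *Clcn1*. When that chloride conductance is lost, single stimuli give trains of action potentials, the sign known as myotonia. The Na/K pump restores the ion gradients between contractions and removes the potassium that collects in the T-tubules. Muscleblind-like proteins bind RNA at motifs with a GC core, in introns near alternative exons and in 3′ UTRs, and *Clcn1* exon 7a is a textbook example of an exon that they keep out of adult muscle mRNA.

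Sequences with the tallest stacks of tags in these genes are given first, so that the counts can be read against them. *Kcnma1* has none here, since its only window was A-rich. All are from the mm9 genome, 5′ to 3′ on the strand of the gene, and capitals mark each match to the muscleblind motif. It was searched in 4 spellings, TGCT and TGCC and, with C as the leading base, CGCT and CGCC, on the gene strand only and with overlapping matches counted. The first 3 are from *Clcn1* (plus strand). They are the longest run of tags upstream of exon 7a, joined across gaps of up to 20 nt (chr6:42243161-42243263), the position with the most *Clcn1* tags (chr6:42243325-42243354), and exon 7a itself (chr6:42243443-42243521), which had no tag.
Clcn1 stretch 1: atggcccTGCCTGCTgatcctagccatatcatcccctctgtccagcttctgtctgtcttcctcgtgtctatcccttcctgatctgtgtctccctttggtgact
Clcn1 window 1: tttcctcctgTGCTGCCcccgttcttctgt
Clcn1 exon 7a: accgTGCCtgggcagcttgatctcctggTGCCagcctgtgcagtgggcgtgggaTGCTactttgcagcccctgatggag

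The next are the highest 30-nt windows in the 3′ UTRs of *Atp1b1* (chr1:166367701-166367730 and chr1:166367548-166367577, minus strand), *Fxyd1* (chr7:31836772-31836801 and chr7:31836731-31836760, minus strand) and *Kcnj2* (chr11:110937117-110937146 and chr11:110937357-110937386, plus strand), and an intronic stack of tags in *Scn4a* (chr11:106206433-106206463, minus strand). They show that some of the tallest windows are dense in the motif, while *Kcnj2* window 1 holds no match. Windows were placed on the highest coverage of both tables together, to which *Mbnl1* KO gave most of the tags. The window ratios given below are therefore descriptions, and their intervals do not allow for that choice.
Atp1b1 window 1: gttgTGCTccgTGCTgaaTGCTgtctCGCC
Atp1b1 window 2: tctctggaggcatcatgCGCTggTGCTgcg
Fxyd1 window 1: agaTGCTCGCCtgtgaccacccccagcgtt
Fxyd1 window 2: cccTGCCtttcggacacccctTGCTGCTca
Kcnj2 window 1: ggactgttccttcgagagctttttgtagtt
Kcnj2 window 2: gccagtTGCTtctgtgttgcaagcaaatcc
Scn4a stack: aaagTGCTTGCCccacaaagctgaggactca

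Depth was 343554 unique tags (5176203 reads) in WT and 476543 (50329234 reads) in *Mbnl1* KO. Single-base tags, those aligned where 1 base fills at least 70% of the genome sequence, were 44.0% of all WT and 17.0% of all *Mbnl1* KO tags on assembled chromosomes, and 79.0% and 59.5% of tags rested on 1 read. A ratio is the number of tags per 1000000 in *Mbnl1* KO divided by that in WT, and the range in brackets is its 95% interval, computed by the exact Clopper-Pearson method on the *Mbnl1* KO share of a gene's tags. The interval allows for counting error alone and says how these libraries differ, which need not be how the genotypes differ. A floor of 3 tags, set for a count of 0, is 8.73 tags per 1000000 in WT and 6.30 in *Mbnl1* KO. The upper end of the exact 95% Poisson interval for 0 tags is higher, at 10.7 and 7.74. Defining markers of the skeletal muscle fibre were detected in both tables (6 of 6 genes, with 32 to 424 WT and 142 to 1519 *Mbnl1* KO tags each, ratio over the list 2.51). Other cell types were present too, with 155 WT and 673 *Mbnl1* KO tags over 3 fibroblast genes (ratio 3.13), 37 and 87 over 3 endothelial genes (1.70), 5 and 35 over 3 fat genes (5.05), 6 and 14 over 3 Schwann cell genes (1.68) and 19 and 28 over 3 smooth muscle genes (1.06). Genes of the heart (27 and 30 tags, 0.801) and of leukocytes (9 and 8, 0.641) had ratios below 1. Their intervals included 1, and so did those of the Schwann cell and smooth muscle lists. Within the endothelial list ratios ran from 0.811 (*Pecam1*) to 3.05 (*Cdh5*). The part of these cell types in the results below was not tested. The start-codon exon of *Mbnl1* had 5 WT and 2 *Mbnl1* KO tags, too few to check the labels, and it may not be the deleted exon.

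Over the bodies of the 7 genes together, on the gene strand, 120 WT and 448 *Mbnl1* KO tags were counted, or 349 and 940 tags per 1000000. Their ratio was 2.69 (2.20 to 3.32). Tags were found on all 7 genes in both tables. At 6 of the 7 genes, all but *Kcnj11*, the interval was above 1, and these 6 were also those with at least 20 tags in both tables together and with a ratio of at least 2. Of the 3888 protein-coding genes that had 20 or more tags, 38.6% had an interval above 1, and 41.6% a ratio of at least 2. The median ratio was 2.64 over the 7 genes and 2.68 over the 6, against 1.75 over the 3888 (quartiles 1.12 and 2.68). The ratio over the 5 channel genes was 2.69 (1.95 to 3.77) and that over the 2 pump genes 2.69 (2.06 to 3.55), and these did not differ beyond counting error.

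The direction holds for the scale of all tags and not for every scale. When tags were scaled to those on the exons of protein-coding genes (21372 in WT and 82186 in *Mbnl1* KO), the ratio over the 7 genes was 0.971 (0.792 to 1.20), no interval lay above 1, as at all but 1.47% of the 3888 genes, and *Clcn1*, *Kcnma1*, *Atp1b1*, *Fxyd1* and *Kcnj11* were below 1, *Kcnj11* with its whole interval. That scale moved the median of the 3888 genes by -1.47 on the log2 scale, to 0.630. That scale multiplies every ratio by the same factor, so the order of genes does not change with it, and 6 members were above the median gene. Exonic and intronic tags differed in this respect. The median ratio was 3.20 over 1145 genes with at least 20 exonic tags and 1.30 over 2477 genes with at least 20 intronic tags. The members' exonic tags together (80 in WT and 317 in *Mbnl1* KO) had a ratio of 2.86 (2.23 to 3.70), and their intronic tags (40 and 131) one of 2.36 (1.65 to 3.45). As a sum, on the scale of all tags, the members were thus above the median gene in introns. In exons they were below it, with an interval that included the median. *Kcnma1* held 24 of the 40 WT and 67 of the 131 *Mbnl1* KO intronic tags. Of the members with at least 20 exonic tags, *Kcnj2* (6.18) was above the exonic median and *Atp1b1* (2.85) and *Fxyd1* (2.54) were below it. RNA levels were not analysed here, so more binding and more RNA cannot be told apart at any gene, and neither can fewer cells of a type and less RNA per cell.

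**Figure D1:**
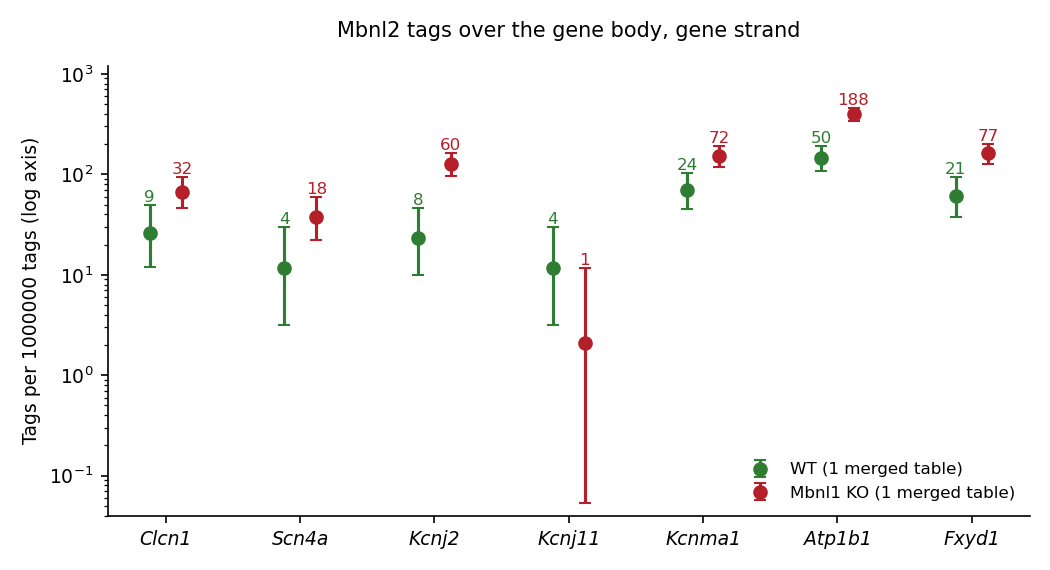
Tags per 1000000 tags over the body of each gene, on the gene strand and a log axis, in the WT (green) and *Mbnl1* KO (red) merged tables. Bars are 95% exact Poisson intervals (counting error only) and the numbers are tags. *Mbnl1* KO lies above WT at 6 genes on this scale of all tags, and *Kcnj11* has only 4 and 1 tags.

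**Figure D2:**
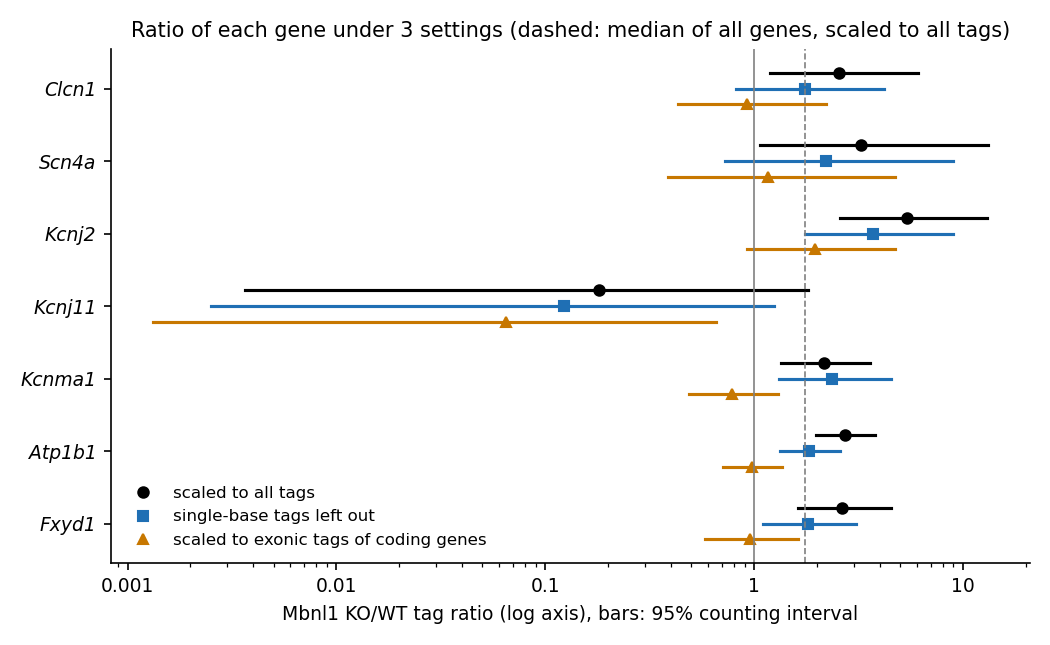
*Mbnl1* KO/WT tag ratio of each gene on a log axis, with 95% counting intervals, scaled to all tags (black circles), with single-base tags left out (blue squares) and scaled to exonic tags of coding genes (orange triangles). The solid line marks 1 and the dashed line 1.75, the median over 3888 genes scaled to all tags. *Kcnj2* and *Scn4a* are the only genes with a point above 1 in all 3 settings, and the other 5 lie below 1 on the exonic scale, with the whole interval of *Kcnj11* below 1.

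*Clcn1*, on chr6:42236684-42265755 (plus strand), encodes the skeletal muscle chloride channel. It had 9 tags in WT (26.2 per 1000000) and 32 in *Mbnl1* KO (67.2 per 1000000), at 7 and 22 distinct positions. The ratio was 2.56 (1.20 to 6.11). The *Mbnl1* KO tags lay mostly in introns. Introns held 5 of the 9 WT tags and 27 of the 32 *Mbnl1* KO tags, which is 84.4% (67.2 to 94.7, Clopper-Pearson), with a ratio of 3.89 (1.48 to 12.9). Exons held 4 and 5 tags, with a ratio of 0.901 (0.194 to 4.54), so a difference was detectable in introns and not in exons. The medians over other sets of genes lay the other way round. They were 3.20 over 1145 genes with at least 20 exonic tags and 1.30 over 2477 genes with at least 20 intronic tags. *Clcn1* had too few exonic tags to be among the former. The intronic interval reached below 1 in 4 of 8 alternatives, with 1.40 (0.533 to 4.67) on the exonic scale, 2.58 (0.863 to 9.24) for tags of at least 30 nt, 2.05 (0.697 to 8.20) with at least 2 reads and 1.72 (0.585 to 6.88) with that and single-base tags left out. The difference between the introns and exons of the gene was not tested.

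The intronic tags gathered around exon 7a and in the next intron. The 3 intron pieces between exon 6 and exon 8 held 2 WT and 24 *Mbnl1* KO tags (ratio 8.65, 2.15 to 75.5). They make up 19.3% of the gene body and held 75% of its *Mbnl1* KO tags. All other introns together, 64.4% of the body, held 3 WT and 4 *Mbnl1* KO tags (ratio 0.961, 0.163 to 6.56). The region was chosen for exon 7a, but its position among the tags was also known, so the contrast between these groups is a description.

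Within that region, the 425 nt of intron 6 just before exon 7a (chr6:42243018-42243442) were the part of the gene with the most tags per length, 28.2 tags per kb over both tables. They held 2 WT and 10 *Mbnl1* KO tags (ratio 3.60, 0.768 to 33.8). They also held 13 motif matches, or 3.06 per 100 nt, against 1.09 per 100 nt in the introns outside the region from exon 6 to exon 8. The 23 exons before the last, with 2.13 matches per 100 nt, and intron 21, with 3 matches in 79 nt, had no tag, while intron 7 had 12 *Mbnl1* KO tags and 1.31 matches per 100 nt. One WT tag (chr6:42243396-42243426) ended 16 nt before exon 7a, and the stack of 4 *Mbnl1* KO tags shown above as window 1 ended 87 nt before it. One tag of that stack rested on 3585 reads, which the count of unique tags takes as 1.

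Exon 7a itself is 79 nt long, is part of 3 of the 12 annotated transcripts (2 of them targets of nonsense-mediated decay) and contains 3 motif matches. It had 0 tags in both tables. The 555 nt of intron 6 that follow it held 0 WT and 2 *Mbnl1* KO tags, with 11 motif matches. Intron 7 (chr6:42244156-42248797, 4642 nt) held 0 WT and 12 *Mbnl1* KO tags at 7 positions, with an interval from 2.0 upward. These tags were spread along the intron. The 3 positions nearest its end, from chr6:42248130-42248152 on, held 6 of them.

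Of the 24 exons, only the last (exon 23 in a numbering that counts 7a apart, chr6:42263806-42265755, which contains the 3′ UTR) had tags, 4 in WT and 4 in *Mbnl1* KO. The other *Mbnl1* KO tag counted as exonic lay in an exon of an annotated transcript that retains an intron. The last exon overlaps *Fam131b* on the opposite strand, and no other annotated gene overlaps a member. No *Clcn1* tag was single-base and none lay on the opposite strand. The whole-gene interval reached below 1 in 7 of 10 alternatives. These were single-base tags left out (1.75, 0.816 to 4.17), which changes only the scale here, tags of at least 2 reads (1.62, 0.651 to 4.81), both filters (1.36), 1 tag for each 5′ end (2.38, 0.974 to 6.62), tags of at least 30 nt (2.27, 0.883 to 6.52), exons only (0.901) and the exonic scale (0.925).

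**Figure D3:**
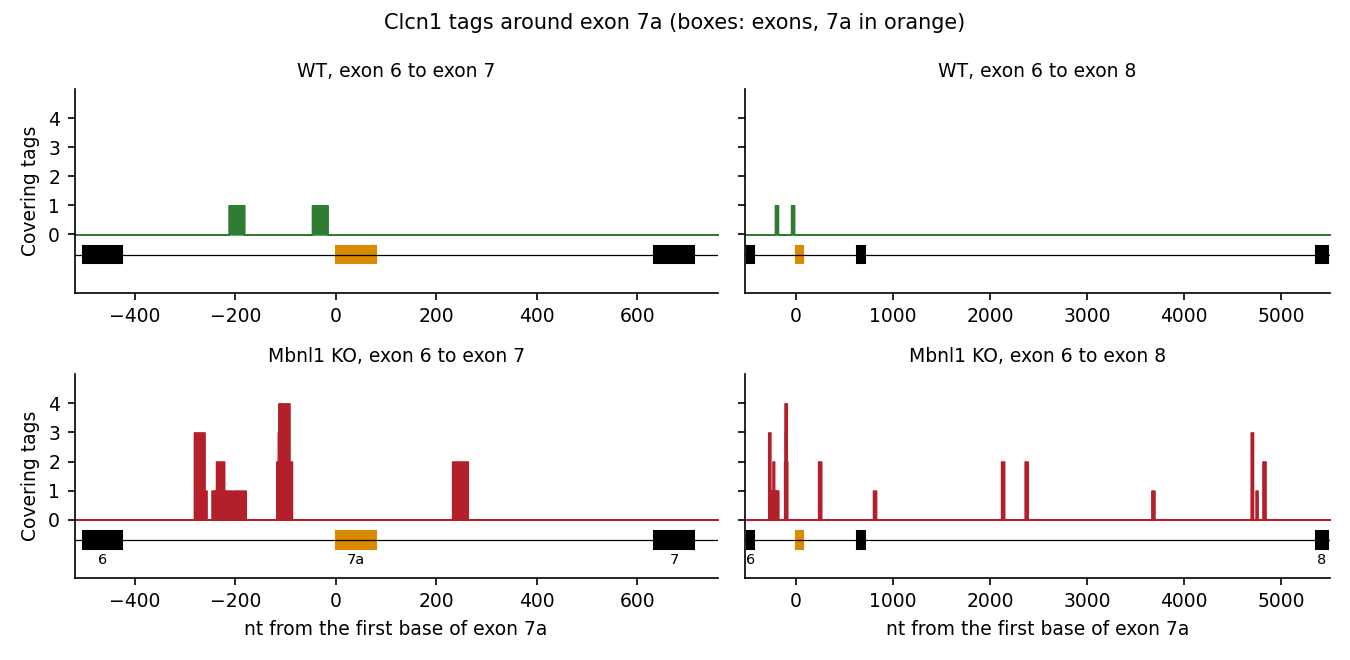
Number of *Clcn1* tags covering each nucleotide, by distance in nt from the first base of exon 7a, in WT (upper panels, green) and *Mbnl1* KO (lower panels, red), from exon 6 to exon 7 (left) and from exon 6 to exon 8 (right). Black boxes are exons and the orange box is exon 7a, which no tag covers. The 2 WT tags lie upstream of exon 7a and the 24 *Mbnl1* KO tags on both sides of it and along intron 7.

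*Scn4a*, on chr11:106179906-106214602 (minus strand), encodes the voltage-gated sodium channel that carries the upstroke of the muscle action potential. It had 4 tags in WT (11.6 per 1000000) and 18 in *Mbnl1* KO (37.8 per 1000000), at 3 and 15 positions. The ratio was 3.24 (1.07 to 13.2), close to no difference at the lower bound. The interval reached below 1 with single-base tags left out (2.21, 0.729 to 8.99), with tags of at least 2 reads (2.05, 0.448 to 19.1), with both filters (1.72), with exons only (2.16) and on the exonic scale (1.17, 0.385 to 4.75). Introns held 2 WT and 12 *Mbnl1* KO tags and exons 2 and 6.

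The tags of *Scn4a* were scattered, apart from 2 places with 4 overlapping tags each. The stack shown above lay in intron 6, 265 nt from the nearest exon, with 0 WT and 4 *Mbnl1* KO tags that rested on 4953 reads, and its 31 nt hold 2 motif matches that abut. This stack was chosen after its values were seen, since it falls short of the 5 tags set for a window. In the last exon, 2 WT tags and 1 *Mbnl1* KO tag shared a position (chr11:106181591-106181610), and 1 more *Mbnl1* KO tag (chr11:106181587-106181609) overlapped them. A position in intron 5 (chr11:106208229-106208250) also had tags in both tables.

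Tags also lay past the annotated end of *Scn4a*. The 3829 nt up to the next gene on that strand held 7 WT and 3 *Mbnl1* KO tags, and 1 of the WT tags rested on 1786 reads. With them included, a choice made after the data were seen, the counts were 11 and 21 and the ratio was 1.38 (0.634 to 3.16), so the interval no longer lay above 1. On the opposite strand of the gene 6 WT and 4 *Mbnl1* KO tags were counted, against 4 and 18 on its own.

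*Kcnj2*, on chr11:110927478-110938135 (plus strand), encodes the inward rectifier Kir2.1, which holds the resting potential near that of potassium. It had 8 tags in WT (23.3 per 1000000) and 60 in *Mbnl1* KO (126 per 1000000), at 8 and 36 positions. The ratio, 5.41 (2.58 to 13.1), was the highest of the 7 genes and lay at the 95 percentile of the 3888 genes. Its interval overlapped those of the other members apart from *Kcnj11*. It was the member whose interval stayed above 1 most often, under 9 of 10 alternative settings, the exception being the exonic scale (1.95, 0.929 to 4.72). Its ratio fell to 3.01 (1.20 to 9.68) under both tag filters.

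All but 1 of the *Kcnj2* tags lay in the 3′ UTR, a single stretch of 3754 nt. It held 7 WT and 60 *Mbnl1* KO tags (ratio 6.18, 2.82 to 16.0, against a median of 3.20 for exonic tags), and the coding exon held none in either table. Of the *Mbnl1* KO tags, 50 of 60 lay in the part of the 3′ UTR past its midpoint, towards the end of the gene, and 4 of 7 WT tags did.

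The tallest *Kcnj2* window, 1004 nt before the gene end, had 0 WT and 8 *Mbnl1* KO tags and no motif match. The window 764 nt before the end had 2 and 6 tags and 1 match. Another (chr11:110937171-110937200), not shown, had 0 and 6 tags and 1 match. *Mbnl1* KO tags thus lay in several small stacks and not in 1 peak.

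*Kcnj11*, on chr7:53352533-53355607 (minus strand), encodes Kir6.2, the pore of the ATP-sensitive potassium channel that opens when the fibre runs short of energy. It was the only member with fewer tags in *Mbnl1* KO, 4 in WT and 1 in *Mbnl1* KO, or 11.6 and 2.10 tags per 1000000. The ratio was 0.180 (0.00366 to 1.82), and at this depth no difference was detectable. The position nearest the gene end (chr7:53352567-53352588) had 1 tag in each table, resting on 18 reads in WT and 340 in *Mbnl1* KO. The other WT tags lay at chr7:53353919-53353949 (2 tags) and chr7:53354197-53354227 (1 tag). On the exonic scale the ratio was 0.0650 and its interval (0.00132 to 0.657) lay below 1, which rests on 5 tags.

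*Kcnma1*, on chr14:24117983-24622526 (minus strand), encodes the pore of the large-conductance calcium-activated potassium (BK) channel, which is also abundant in smooth muscle and nerve. It had 24 tags in WT (69.9 per 1000000) and 72 in *Mbnl1* KO (151 per 1000000), at 23 and 60 positions. The ratio was 2.16 (1.35 to 3.59). The tags were spread thinly over a body of 504544 nt. Introns held all 24 WT tags and 67 of the 72 *Mbnl1* KO tags (ratio 2.01, 1.25 to 3.36, against a median of 1.30 for intronic tags), and exons held 0 and 5.

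The strands of *Kcnma1* differed between the tables. In WT, the opposite strand had 38 tags and the gene strand 24. In *Mbnl1* KO, the opposite strand had 29 and the gene strand 72. Of the gene-strand tags, 10 of 24 in WT and 5 of 72 in *Mbnl1* KO were single-base, and the only window with at least 5 tags was an A-rich one in an intron, with 9 WT tags, all single-base, and 0 *Mbnl1* KO tags. Without single-base tags the counts were 14 and 67 and the ratio 2.35 (1.31 to 4.54). The smooth muscle marker genes had a ratio of 1.06 (0.573 to 2.01) and the Schwann cell genes, the only nerve markers counted, one of 1.68 (0.607 to 5.34), and their part in the *Kcnma1* tags was not tested.

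*Atp1b1*, on chr1:166367398-166388486 (minus strand), encodes the β1 subunit that brings the Na/K pump to the membrane. It carried the most tags of the 7 genes, 50 in WT and 188 in *Mbnl1* KO, or 146 and 395 tags per 1000000, at 44 and 135 positions. The ratio was 2.71 (1.98 to 3.78). It was 7.74 (3.99 to 16.8) for tags of at least 30 nt and 1.71 (1.13 to 2.67) with tags of at least 2 reads, and its interval reached below 1 under both tag filters (1.42, 0.938 to 2.22) and on the exonic scale (0.978). The 3′ UTR of 1012 nt held 41 WT and 161 *Mbnl1* KO tags (ratio 2.83, 2.0 to 4.09), coding exons 1 and 5, and introns 8 and 22 (ratio 1.98, 0.850 to 5.15).

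The taller peaks stood in both tables, and others had *Mbnl1* KO tags alone, such as one of 10 covering tags 790 nt before the gene end. The tallest *Atp1b1* window, shown above and 317 nt before the gene end, had 12 WT tags and 45 *Mbnl1* KO tags. Its ratio was 2.70 (1.41 to 5.61), and its 30 nt hold 4 motif matches. The window 164 nt before the end had 7 and 21 tags and 2 matches. Another (chr1:166368114-166368143), with 3 and 22 tags and a ratio of 5.29 (1.59 to 27.6), had no match. Like every window, it was placed on the coverage of both tables together, so its ratio is a description. A further 5 WT and 33 *Mbnl1* KO tags lay past the annotated end, within 75 nt in WT and 142 nt in *Mbnl1* KO, and with them the ratio was 2.90 (2.15 to 3.97).

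*Fxyd1*, on chr7:31836700-31840675 (minus strand), encodes phospholemman, a small membrane protein that restrains the Na/K pump until it is phosphorylated. It had 21 tags in WT (61.1 per 1000000) and 77 in *Mbnl1* KO (162 per 1000000), at 21 and 52 positions. The ratio was 2.64 (1.61 to 4.51). All 21 WT tags and 71 of the *Mbnl1* KO tags lay in a 3′ UTR of only 135 nt (ratio 2.44, 1.48 to 4.18).

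That short 3′ UTR held 2 humps of tags, at the same places in both tables, while its first bases were covered in *Mbnl1* KO alone. The window 86 nt before the gene end had 10 WT and 38 *Mbnl1* KO tags (ratio 2.74, 1.34 to 6.17) and 2 motif matches, and the window 45 nt before the end had 11 and 36 tags (2.36, 1.17 to 5.14) and 3 matches. Another (chr7:31836803-31836832) had 3 and 18 tags and no match. With tags of the same 5′ end counted once, *Fxyd1* had 16 and 34 tags and a ratio of 1.68 (0.905 to 3.27), and with tags of at least 2 reads the ratio was 1.21 (0.690 to 2.22), so its interval reached below 1 in both, as it did with both tag filters (1.01) and on the exonic scale (0.953).

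**Figure D4:**
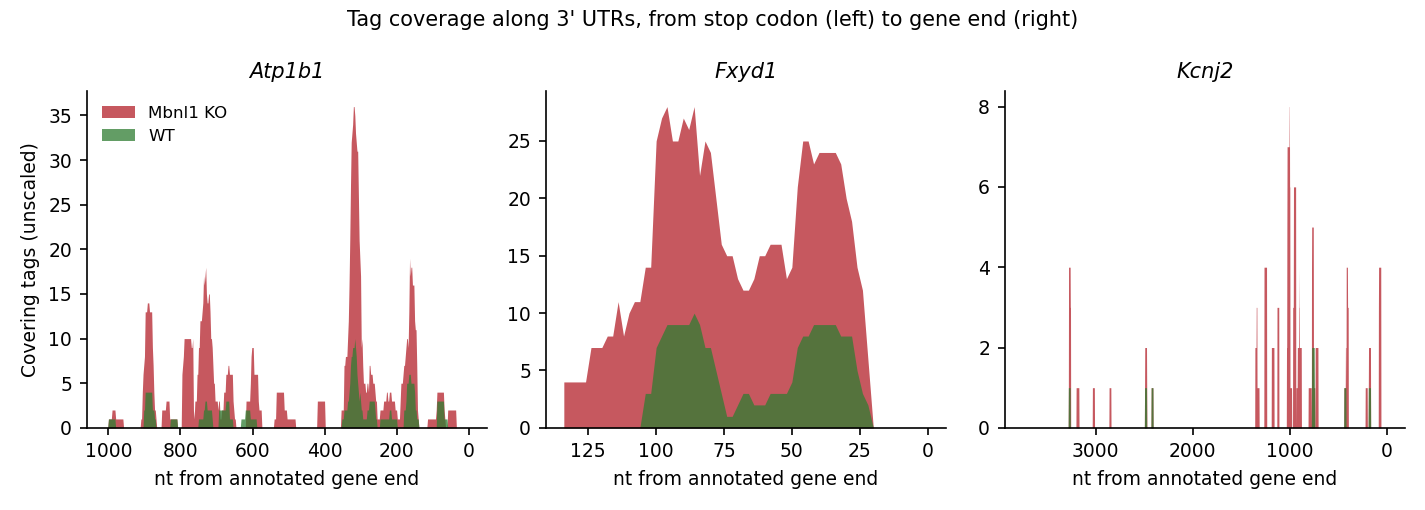
Number of tags covering each position of the 3′ UTRs of *Atp1b1*, *Fxyd1* and *Kcnj2*, not scaled, by distance in nt from the annotated gene end, in *Mbnl1* KO (red) with WT (green) in front. The 3 panels have their own axes. The tallest peaks of *Atp1b1* and *Fxyd1* stand at the same places in both tables, some smaller stacks are covered in *Mbnl1* KO alone, and 50 of the 60 *Mbnl1* KO tags of *Kcnj2* lie past the midpoint of the 3′ UTR, towards the gene end.

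Levels can be compared between genes only per length. Per kb of exon and per 1000000 tags, *Mbnl1* KO muscle had 219 tags on *Fxyd1* (172 to 275, exact Poisson interval), 144 on *Atp1b1* (123 to 167) and 23.1 on *Kcnj2* (17.6 to 29.8), whose intervals do not overlap. *Kcnma1* (2.21), *Clcn1* (1.93), *Scn4a* (1.79) and *Kcnj11* (0.682) followed, and these 4 did not differ beyond counting error. In WT the order was *Fxyd1* (86.2, 53.4 to 132) and *Atp1b1* (50.5, 36.4 to 68.2), whose intervals overlap, then *Kcnj11* (3.79), *Kcnj2* (3.74), *Clcn1* (2.14) and *Scn4a* (0.827), which did not differ beyond counting error, and *Kcnma1*, with 0 exonic tags. The pump subunit and its regulator were thus the most densely tagged members in both tables.

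By place, the 7 genes fell into those tagged in 3′ UTRs (*Kcnj2*, *Atp1b1*, *Fxyd1* and the few tags of *Kcnj11*) and those tagged mostly in introns in *Mbnl1* KO (*Clcn1*, *Scn4a*, *Kcnma1*). Over all 7, 3′ UTRs held 76 WT and 300 *Mbnl1* KO tags, which is 63.3% (54.0 to 71.9) and 67.0% (62.4 to 71.3). Introns held 33.3% (25 to 42.5) and 29.2% (25.1 to 33.7). Coding exons held 3.33% and 3.13%. These shares did not differ between the tables beyond counting error, while over the 3888 genes the intronic share of the tags was 75.1% in WT and 57.0% in *Mbnl1* KO.

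**Figure D5:**
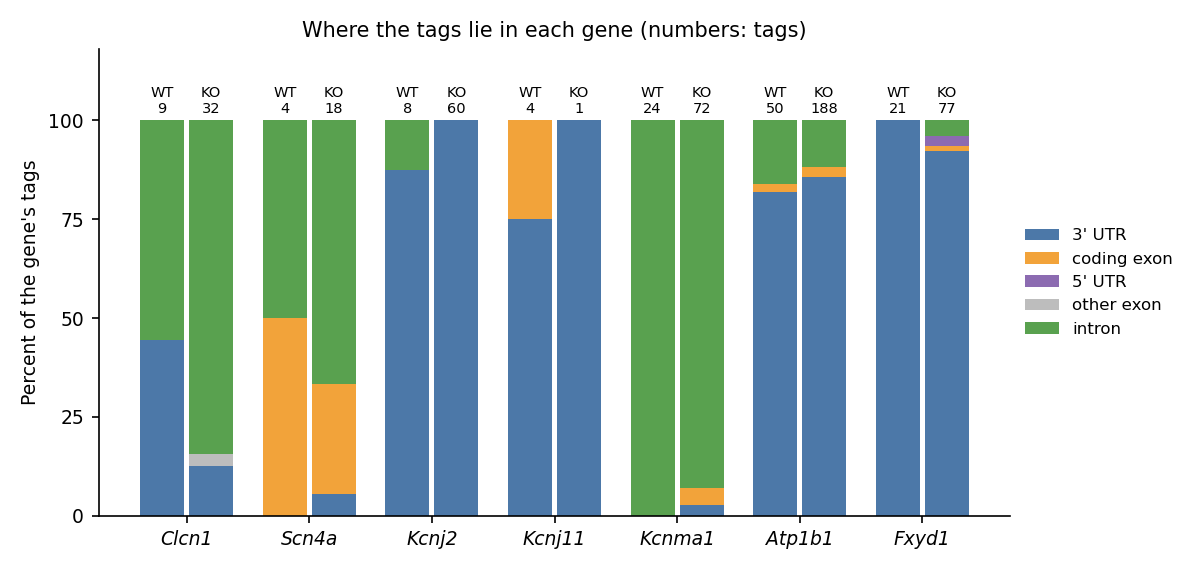
Share of each gene's tags (percent) in 3′ UTRs, coding exons, 5′ UTRs, other exons and introns, for WT (left bar) and *Mbnl1* KO (right bar), with the number of tags above each bar. *Kcnj2*, *Atp1b1* and *Fxyd1* are tagged mostly in the 3′ UTR in both tables, *Kcnma1* in introns, and 84.4% of the *Mbnl1* KO tags of *Clcn1* are intronic.

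The motif was found in 10 of the 15 windows shown or counted over the members (66.7%), with a mean of 1.27 matches per window. Among the highest 30-nt windows of the 3888 genes, 47.7% held a match (mean 0.848), and 31.0% of 802365 tiles of 30 nt from the exons of those genes did (mean 0.392). The windows of 1 gene share a transcript and 5 of the 15 are from *Clcn1*, for which windows with at least 3 tags were taken and not 5. Each of the 3888 genes gave 1 window, while members gave several, and 10 of the 15 lay in exons. The shares are thus not like for like, and no enrichment can be read from 15 windows. A match is a string in the sequence and no evidence of contact by itself.

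Of 45 other genes, listed by channel, pump or receptor family with their partners, 39 had tags. These were 274 in WT and 729 in *Mbnl1* KO, with a ratio of 1.92 (1.67 to 2.21). At least 20 tags were found on 14. The interval lay above 1 at 7 of these 14, against 38.6% of the 3888 genes, and below 1 at 1, against 3.83%. The ratio was at least 2 at 7, against 41.6%, and the median of the 14 was 2.10, against 1.75. On the exonic scale the ratio over the 45 genes was 0.692 (0.601 to 0.798), and of the 14 genes 4 had a ratio above 1 (*Kcnc4*, *Atp1b2* and *Atp1b3* among them), 0 an interval above 1 and 5 an interval below 1, where 33.9% of the 3888 genes had an interval below 1. With single-base tags left out, 6 of the 14 had an interval above 1 and 0 below 1, against 23% and 2.24% of the 3888 genes. With tags of at least 2 reads 3 and 0 did, against 9.7% and 1.93%. Both checks were added after the data were seen.

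The other Na/K pump subunits and FXYD proteins had 38 WT and 219 *Mbnl1* KO tags together (ratio 4.15, 2.93 to 6.03). On the exonic scale their ratio was 1.5 (1.06 to 2.17), and *Atp1b1* and *Fxyd1* together were at 0.971 (0.744 to 1.28). The sums over the other *Clcn*, sodium and potassium channel genes were below 1 there. Exons held 30 of the 38 WT and 189 of the 219 *Mbnl1* KO tags of the other pump genes. They held 36 of 61 and 115 of 135 in the sodium channel genes. In the potassium channel genes they held 13 of 144 and 71 of 316. The median ratio over genes was 3.20 for exonic and 1.30 for intronic tags, so these sums are not like for like. The part of tag place in them was not tested. *Atp1b2*, another β subunit, had 9 and 66 tags (5.29, 2.62 to 12.1). *Atp1b3* had 6 and 32 (3.84, 1.59 to 11.2), so both of these had an interval above 1, as *Atp1b1* and *Fxyd1* did, on the scale of all tags. With tags of at least 2 reads *Atp1b3* (2.36, 0.696 to 12.5) no longer did, nor did *Fxyd1*, while *Atp1b2* (2.35, 1.05 to 6.17) and *Atp1b1* did. Whether the members and the other subunits differ was not tested.

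Among sodium channel genes, *Scn4b*, a β subunit, had 29 and 96 tags (2.39, 1.56 to 3.75). The sodium leak channel *Nalcn* had fewer in *Mbnl1* KO, with 20 and 13 tags (0.469, 0.214 to 0.990). Of these, 11 in WT and 3 in *Mbnl1* KO were single-base, and without them the ratio was 0.547 (0.200 to 1.52), so the call was lost. Among potassium channel genes, *Kcnc4* had 4 and 31 tags (5.59, 1.98 to 21.8), *Abcc9*, a sulphonylurea receptor that partners Kir6 pores, 22 and 58 (1.90, 1.15 to 3.26), and *Kcnq5* 49 and 99 (1.46, 1.02 to 2.10). With tags of at least 2 reads the intervals of *Scn4b* (1.49, 0.894 to 2.61), *Abcc9* (1.38, 0.673 to 3.11) and *Kcnq5* (1.66, 0.853 to 3.55) reached below 1, and that of *Abcc9* did so with single-base tags left out too (1.27, 0.767 to 2.19). On the exonic scale *Scn4b* (0.861) and *Abcc9* (0.686) were below 1 with intervals that included it, and the whole interval of *Kcnq5* (0.525, 0.369 to 0.756) lay below 1.

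The intervals of *Kcnn2* (1.23), *Kcnn3* (2.31), *Kcnab1* (1.08) and *Abcc8* (0.961) included 1, and so did that of the chloride transporter *Clcn5* (1.37). The 6 other *Clcn* genes, a family that also holds transporters such as *Clcn5*, had 29 and 50 tags in all (1.24, 0.771 to 2.04). Of these tags 0 were on *Clcn2*. *Clcn1* alone had 9 and 32, and the intervals overlap. The 5 acetylcholine receptor subunit genes of the endplate had 2 and 9 tags, too few for a ratio to be read.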

How the data were processed

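Mbnl2 HITS-CLIP tags of quadriceps muscle were read from 2 tables, 1 for each genotype. Reads were filtered by the authors, aligned to mm9 with BWA (version not given in the sources used here), cleared of potential PCR duplicates and merged over 3 mice. Every line of a deposited table is 1 unique tag with its raw count of reads. Depth was 343554 WT and 476543 *Mbnl1* KO tags.

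Tags overlapping a gene on its strand (GENCODE vM1, mm9) were counted with Python 3.11.15, numpy 2.4.6, pandas 2.3.3, scipy 1.17.1 and pysam 0.24.0 and divided by the table total. A tag over an exon of any transcript of the gene counted as exonic. Intervals are exact at 95%. Windows are up to 3 per gene, 30 nt long, centred on the highest coverage, with at least 5 tags (3 and no upper number in *Clcn1*). The members and lists were chosen with earlier results of these data known. All members are named, as are those of 45 other genes with at least 20 tags, apart from some that are not reported here. Counting and intervals were tested on simulated data. Alternatives were raw, exonic and collapsed counts, longer tags, midpoints, filters on single-base and 1-read tags, exons only, and 4 added after the data were seen (extended gene ends, *Atp1b1* left out, and the tag filters on the other listed genes and on all genes).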

Additional observations from a re-analysis of the deposited data

How the results depend on the processing

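No paired analysis was possible because the mice of a genotype share 1 merged table, so that no mouse could be left out either. The ratio over the 7 genes, 2.69 as reported, was 3.73 without scaling, 2.13 after tags sharing a 5′ end were counted once, 5.24 for tags of 30 nt or more, 1.98 with single-base tags left out, 1.75 with tags of at least 2 reads and 1.48 with both filters, and it reversed to 0.971 when scaled to exonic tags of coding genes. That scale multiplies a raw ratio by 0.260 in place of 0.721, so every ratio falls by its construction. On it *Atp1b1* was at 0.978, *Clcn1* at 0.925, *Fxyd1* at 0.953 and *Kcnma1* at 0.780. The median of the 7 genes, 2.64 as reported, was 0.953 on the exonic scale, 7.74 for tags of 30 nt or more (with *Scn4a* and *Fxyd1*, at 0 WT and 9 and 26 *Mbnl1* KO tags, taken as highest), 1.71 with at least 2 reads and 1.42 with both filters. The median over the 3888 genes, 1.75 as reported, moved the same way, to 0.630, 3.31, 1.37 and 1.25. The number of genes with an interval above 1, 6 as reported, was 0 on the exonic scale, 3 with at least 2 reads, 2 with both filters and 3 with exons only, where *Clcn1* was at 0.901. It was 4 to 6 in the other settings. Over all genes the shares moved as well, with an interval above 1 at 38.6% of the 3888 genes as reported, 1.47% on the exonic scale, 9.70% with at least 2 reads and 5.63% with both filters, 23% with single-base tags left out, 27.2% with 5′ ends collapsed and 42.2% for tags of 30 nt or more. *Kcnma1* gave no ratio with exons only (0 and 5 tags).

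Extending the genes past their annotated ends, a choice made after the data were seen, gave 2.66 over the 7 genes and ended the call at *Scn4a*. Leaving out *Atp1b1*, another such choice, gave 2.68. Over the 10 alternatives of each gene, the interval lay above 1 in 9 for *Kcnj2*, 8 for *Atp1b1*, 8 for *Kcnma1*, 6 for *Fxyd1*, 4 for *Scn4a*, 3 for *Clcn1* and 0 for *Kcnj11*. The few WT tags limit *Scn4a*, *Kcnj11*, *Kcnj2* and *Clcn1*, and the spread between mice is unknown for all 7.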
